A study of Mus musculus with 8 samples.

Results

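The genes described here are 10 interferon-gamma (IFN-γ)-inducible GTPases, namely the guanylate-binding proteins Gbp2, Gbp3, Gbp5 and Gbp7 and the immunity-related GTPases Igtp, Irgm1, Irgm2, Iigp1, Ifi47 and Tgtp2. They were taken by gene symbol from a table of 54188 mouse genes, each symbol matched 1 row, and all 10 were among the 17650 genes tested. The table holds RNA-seq read counts of myeloid cells from 20-week-old sanroque mice, a C57BL/6 strain homozygous for the san allele of Roquin that develops lupus-like autoimmunity and whose labels give females throughout. CD11b+ cells were sorted by the level of Gr-1 from spleen (SP) and bone marrow (BM) into SP Gr-1hi (libraries 5 and 6), SP Gr-1lo (7 and 8), BM Gr-1hi (9 and 10) and BM Gr-1lo (11 and 12), with 2 libraries a group. The study called the Gr-1hi cells granulocytic and the Gr-1lo cells monocytic myeloid-derived suppressor cells. It compared the splenic cells with BM cells that it described as autologous. All 4 groups carry the san mutation, so no group shows these genes in wild-type cells, and no label ties a library to a mouse.

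Both GTPase families act in cell-autonomous defence. IFN-γ binds its receptor, JAK kinases are activated, and GBP and IRG genes are switched on from nearby DNA elements, the GAS (gamma-activated site) and the ISRE (interferon-stimulated response element), the latter bound by the factor IRF1. The proteins then assemble on the vacuoles of intracellular microbes, where GBPs help to open the vacuole and to set off inflammasomes, and the regulatory IRGs Irgm1, Irgm2 and Igtp (Irgm3) keep effector IRGs such as Iigp1, Ifi47 and Tgtp2 off the membranes of the cell itself. Macrophages are the cells in which this program is best described.

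The 4 GBP genes lie side by side on chromosome 3, within 144 kb. In GRCm38 with the GENCODE M21 gene models, all on the plus strand, they were Gbp5 at chr3:142493978-142522344, Gbp7 at chr3:142530342-142550149, Gbp3 at chr3:142560026-142573209 and Gbp2 at chr3:142620602-142638008. Of the IRG genes, 5 were on chromosome 11. Irgm1 was at chr11:48861968-48871683 and Tgtp2 at chr11:49057194-49064206, both on the minus strand, and Ifi47 at chr11:49076587-49096974, Igtp at chr11:58199556-58207591 and Irgm2 at chr11:58199618-58222782 on the plus strand. The Irgm2 model starts inside that of Igtp on the same strand, and Ifi47 lies within the longer model of Olfr56 on the same strand. Reads of these genes can therefore overlap those of a neighbour. Tgtp2 also lies within the Olfr56 model, but on the opposite strand.

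The RefSeq promoter table (GRCm38.p6, 250 bases before to 50 after each start) held 9 of the 10 genes, all but Iigp1. Both strands were searched for the 9-letter GAS pattern TTCNNNGAA and for the 9-letter core GAAANNGAA of an ISRE. GAS letters stood in the promoters of 5 genes (Gbp5, Gbp7, Igtp, Irgm2 and Tgtp2) and ISRE core letters in those of 8, all but Ifi47, whose window held neither. Over all 32851 promoters in the table, 8.30% held the GAS letters and 8.56% the ISRE core. Igtp, Irgm2 and Tgtp2 shared an arrangement in which the ISRE core began 11 bases after the start of the GAS, leaving 2 bases between them. That arrangement, looked for after it had been seen in these genes, stood in 8 promoters of the table (0.0244%), listed as Igtp, Irgm2, Tgtp2, Tgtp1, Gm12185, Adar, Olfr382 and LOC115488470. The stretches below show it, with both matches in capitals and each sequence read 5′ to 3′ on the strand of its gene. They lie at chr11:58199506-58199535 (plus strand, upstream of the Igtp model), chr11:58214897-58214926 (plus strand, in an intron of the longer Irgm2 model) and chr11:49064269-49064298 (minus strand, upstream of Tgtp2).
Igtp: gccatTTCTAGGAActGAAACTGAAagctg
Irgm2: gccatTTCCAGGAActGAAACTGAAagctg
Tgtp2: gccatTTCCAGGAAtcGAAACCGAAaccta

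The GBP promoters had no such pair and are shown because Gbp3, Gbp5 and Gbp7 were the genes called between SP and BM below. Here the ISRE core matched on the opposite strand and so reads TTCNNTTTC. The stretches lie on the plus strand at chr3:142620600-142620618 (Gbp2, mostly in an exon of its GENCODE model), chr3:142559995-142560019 (Gbp3, upstream of the model), chr3:142496877-142496895 and chr3:142496765-142496783 (Gbp5, both in an intron of a longer GENCODE model), and chr3:142530229-142530258 and chr3:142530279-142530297 (Gbp7, upstream). Gbp3 had 2 starts in the table, and the letters were found at 1 of them. A further GAS match in Gbp5, 245 to 237 bases before the start, is not printed. Capitals mark the ISRE core in Gbp2, in Gbp3 (where 2 matches overlap) and in the second stretches of Gbp5 and Gbp7, and the GAS in the first stretches of Gbp5 and Gbp7.
Gbp2: ttagtTTCACTTTCactgt
Gbp3: acagtTTCAGTTTCTATTTCccaga
Gbp5: gttatTTCTCAGAAccaag
Gbp5: gtagtTTCAATTTCagttt
Gbp7: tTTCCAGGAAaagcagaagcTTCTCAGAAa
Gbp7: gcagtTTCAGTTTCagttc

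Irgm1, another regulatory IRG, had 2 overlapping ISRE cores and no GAS letters in its window. Its stretch at chr11:48871431-48871455, on the minus strand and in an exon of the GENCODE model, is shown with the cores in capitals for comparison with Igtp and Irgm2.
Irgm1: ttcaaGAAATAGAAACCGAAactga

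**Figure D1:**
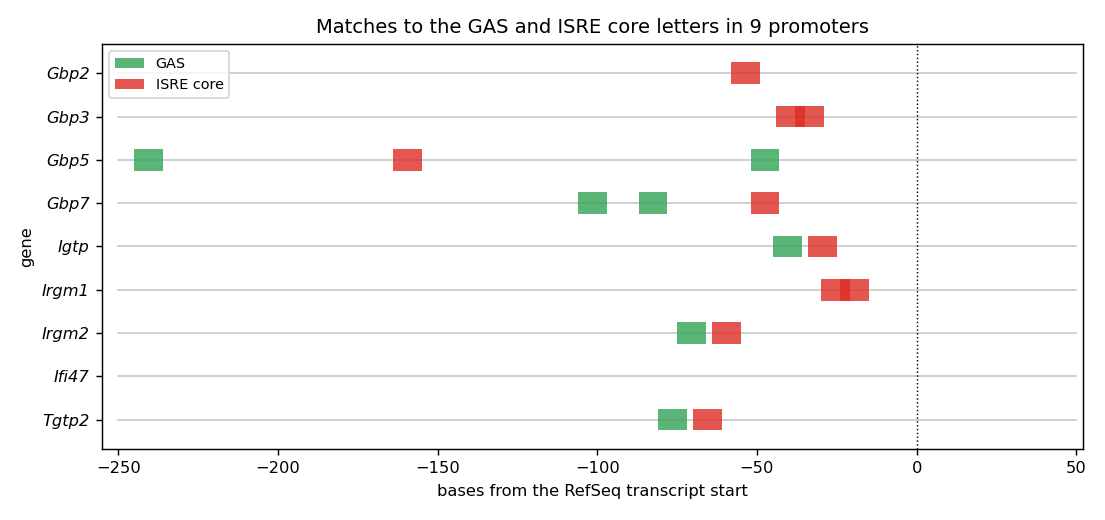
Positions of the GAS (green) and ISRE core (red) letters in the promoters of 9 GTPase genes. The x axis gives bases from the RefSeq transcript start (dotted line), each row is a gene, and for Gbp3 the start with matches is drawn. Igtp, Irgm2 and Tgtp2 show a GAS directly followed by an ISRE core, Gbp5 and Gbp7 hold both sets of letters apart from each other, and Ifi47 holds neither.

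The libraries held 33453580 to 68316154 counts, so that the limit a count of 0 allows (3 counts) was 0.0348 to 0.124 CPM, and none of the 10 genes came near it. Markers of the sort followed the labels, with Ly6g at 330.0 to 801 CPM in Gr-1hi libraries and 3.07 to 8.23 in Gr-1lo ones, and Csf1r at 133 to 375 and 436 to 754 CPM. Itgam, which encodes CD11b, stood at 734 to 4904 CPM. Transcripts of the sex chromosomes did not follow the labels, which give females throughout. Xist had 12032 counts in library 5 and 9898 in library 7 and at most 5 elsewhere, and Ddx3y had 0 counts in library 5 and 33.7 to 82.6 CPM in the other 7. Library 7 thus held both transcripts. The calls of the GTPases and of the gene lists are also given without these libraries, which leaves each SP group with 1 library, while levels, ratios, profiles and marker sums are shown for each library or as ranges that include them.

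Gbp2 had the highest level of the family in each of the 4 groups. Per kb of exon, with the length of the merged GENCODE exons, its mean was 828 ± 260.4 CPM per kb (SD, n = 2) in SP Gr-1hi, 212 ± 92.2 in SP Gr-1lo, 200.1 ± 135 in BM Gr-1hi and 120.0 ± 77.9 in BM Gr-1lo, which was 46.2%, 35.8%, 34.0% and 28.1% of the summed level of the 10 genes. In SP Gr-1hi cells the order after Gbp2 was Igtp (273 CPM per kb), Gbp7 (142), Irgm2 (129), Ifi47 (125), Tgtp2 (87.3), Irgm1 (79.8), Gbp5 (62.5), Gbp3 (57.6) and Iigp1 (9.85). The libraries of neighbours in this order overlapped except between Gbp2 and Igtp, Igtp and Gbp7, Ifi47 and Tgtp2, and Gbp3 and Iigp1. BM Gr-1hi cells had Igtp second (144), Irgm2 next (78.7), Gbp5 last but one (5.40) and Iigp1 last (1.44), and there only the Igtp and Irgm2 pair and the Gbp5 and Iigp1 pair did not overlap. The order was flatter in Gr-1lo cells. By mean, Ifi47 and Igtp followed Gbp2 with 66.6 and 62.0 CPM per kb in SP and 58.2 and 52.8 in BM. Iigp1 stood in the middle (37.5 and 26.9), and Gbp5 had the lowest mean (25.6 and 11.7). Neighbours in these orders overlapped except Gbp2 and Ifi47 in SP and Irgm1 and Gbp5 in BM.

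**Figure D2:**
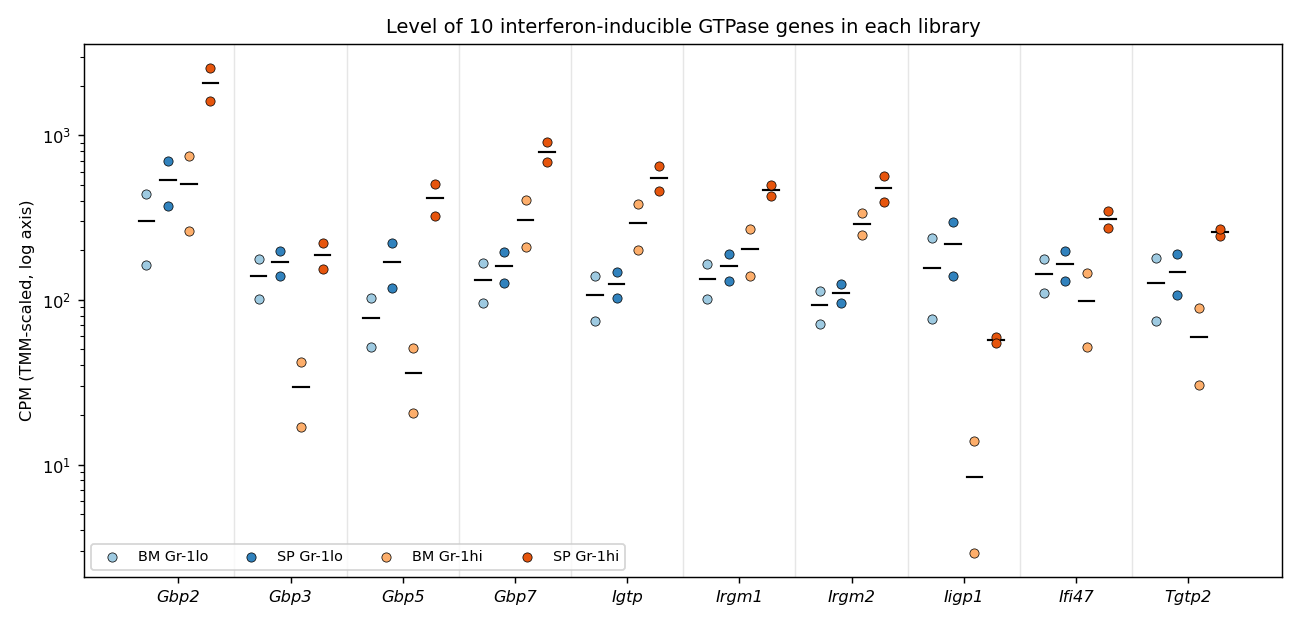
Level of each of the 10 genes in each of the 8 libraries, as TMM-scaled CPM on a log axis. Each point is 1 library, each bar the mean of 2, and colours mark the 4 groups. In all 10 genes both SP Gr-1hi libraries lie above both BM Gr-1hi libraries, while the Gr-1lo groups of SP and BM overlap in 9, and Iigp1 is the gene with both Gr-1hi groups below both Gr-1lo groups.

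Whether splenic cells carry more of these transcripts than their BM counterparts was asked first for the Gr-1hi cells. All 10 genes were higher in SP than in BM in this subset, with no overlap between the libraries, against 35.9% of all genes tested, and the log2 fold changes ranged from 0.72 to 3.53 with a median of 1.85 (0.03 over all genes). Of the 10, 3 passed the test, which asked for an adjusted p no higher than 0.05 together with a fold change (FC) of 2 or more. These were Gbp3, Gbp5 and Gbp7, against 14.0% of all genes called higher, and none was called lower, against 1.48% of all genes. Because RNA came from sorted populations, fewer cells of a type and less RNA per cell cannot be told apart.

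Gbp5, a GBP known for promoting inflammasome assembly, had the largest difference. It was at 507 and 323 CPM in SP Gr-1hi, 20.5 and 51.2 in BM Gr-1hi, 119 and 221 in SP Gr-1lo, and 51.7 and 103 in BM Gr-1lo (libraries in numerical order here and below). Both BM Gr-1hi libraries were lower than any other, and both SP Gr-1hi libraries were higher than any other. The FC between SP and BM in Gr-1hi cells was 11.6 (log2 3.53 ± 0.64 SE, adjusted p = 0.00974 in edgeR's quasi-likelihood fit, Benjamini-Hochberg adjusted).

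Among the genes called, Gbp3 followed with 222 and 154 CPM in SP Gr-1hi and 16.9 and 42.0 in BM Gr-1hi. It stood at 140.2 and 198 CPM in SP Gr-1lo and 102 and 176 in BM Gr-1lo. It was low in BM Gr-1hi cells alone, and the libraries of the other 3 groups overlapped. The FC in Gr-1hi cells was 6.40 (log2 2.68 ± 0.51, adjusted p = 0.0102). Gbp7, a GBP reported to work with oxidase and autophagy components at the vacuole, was at 905 and 684 CPM in SP Gr-1hi, 209 and 403 in BM Gr-1hi, 127 and 194 in SP Gr-1lo, and 96.3 and 167 in BM Gr-1lo. Its 4 Gr-1hi libraries were all above its 4 Gr-1lo libraries. The FC in Gr-1hi cells was 2.59 (log2 1.38 ± 0.41, adjusted p = 0.0436).

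Gbp2, the most abundant member, was at 2547 and 1621 CPM in SP Gr-1hi and 263 and 744 in BM Gr-1hi, and at 369 and 697 in SP Gr-1lo and 163 and 441 in BM Gr-1lo. Only the SP Gr-1hi libraries stood clear of the rest. Its FC of 4.14 in Gr-1hi cells (log2 2.05 ± 0.72) did not pass the test (adjusted p = 0.0757), and the 2 BM Gr-1hi libraries differed 2.83-fold from each other.

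Among the regulatory IRGs, Igtp was at 648 and 455 CPM in SP Gr-1hi, 202 and 380.4 in BM Gr-1hi, 103 and 148 in SP Gr-1lo, and 74.5 and 139 in BM Gr-1lo. Irgm2 had a like pattern, with 562 and 394 CPM in SP Gr-1hi, 247 and 334 in BM Gr-1hi, 95.3 and 125 in SP Gr-1lo, and 71.5 and 114 in BM Gr-1lo. In both genes all Gr-1hi libraries were above all Gr-1lo libraries. Irgm1 was at 499.7 and 428 CPM in SP Gr-1hi, 140.1 and 268 in BM Gr-1hi, 131 and 191 in SP Gr-1lo, and 102 and 165 in BM Gr-1lo, so that BM Gr-1hi overlapped both Gr-1lo groups. These 3 genes had the smallest log2 differences of the 10 between SP and BM in Gr-1hi cells, with values of 1.19 ± 0.37 for Irgm1 (adjusted p = 0.0515), 0.92 ± 0.42 for Igtp (0.138) and 0.72 ± 0.28 for Irgm2 (0.0849), and none passed the test.

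In each of the effector IRGs the lowest of the 8 libraries was a BM Gr-1hi library. Iigp1 (Irga6), the only member on chromosome 18 (chr18:60376027-60392634, plus strand), was at 2.92 and 13.8 CPM in BM Gr-1hi, 59.7 and 55.0 in SP Gr-1hi, 139.6 and 297 in SP Gr-1lo, and 76.7 and 236 in BM Gr-1lo. Alone among the 10 genes, it had every Gr-1hi library below every Gr-1lo library. Ifi47 was at 346 and 272 CPM in SP Gr-1hi, 51.5 and 145 in BM Gr-1hi, 131 and 199 in SP Gr-1lo, and 109.7 and 178 in BM Gr-1lo. Tgtp2 was at 245 and 268 CPM in SP Gr-1hi, 30.6 and 88.9 in BM Gr-1hi, 107 and 189 in SP Gr-1lo, and 74.6 and 179 in BM Gr-1lo. In both of these genes the SP Gr-1hi libraries were the highest. The differences between SP and BM in Gr-1hi cells were log2 2.79 ± 0.92 for Iigp1 (adjusted p = 0.0707), 1.66 ± 0.53 for Ifi47 (0.0585) and 2.10 ± 0.65 for Tgtp2 (0.0548), none past the threshold.

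Tgtp2 has a close copy, Tgtp1, and reads that match both may have been counted on either. Tgtp2 took 46.9% to 60.7% of the counts of the pair in the 8 libraries, with 46.9% and 47.0% in SP Gr-1hi and 52.1% to 60.7% elsewhere. Its values are therefore uncertain as to which copy they belong to.

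For refits on fewer libraries, here and below, no share of all genes called is given, so counts in them cannot be set against it. The number of calls in Gr-1hi cells changed with the library left out. It was 0 without library 5, 2 without library 6, 7, 8 or 9, 4 without library 11 or 12, and 8 without library 10, and it was 0 without libraries 5 and 7 together. Gbp7 lost its call without each of libraries 5 to 9 (adjusted p from 0.0625 to 0.268), and Gbp3 and Gbp5 lost theirs without library 5 (0.0952 and 0.0801). Without libraries 5 and 7 the log2 differences of Gbp3, Gbp5 and Gbp7 were 2.41, 3.19 and 1.18 (adjusted p = 0.194, 0.152 and 0.350). DESeq2 called 8 of the 10 genes higher, all but Igtp and Irgm2, and limma on quantile-normalised values called 5. Over all genes, DESeq2 called 2298 higher and limma 1653, against 2465 in the main fit.

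**Figure D3:**
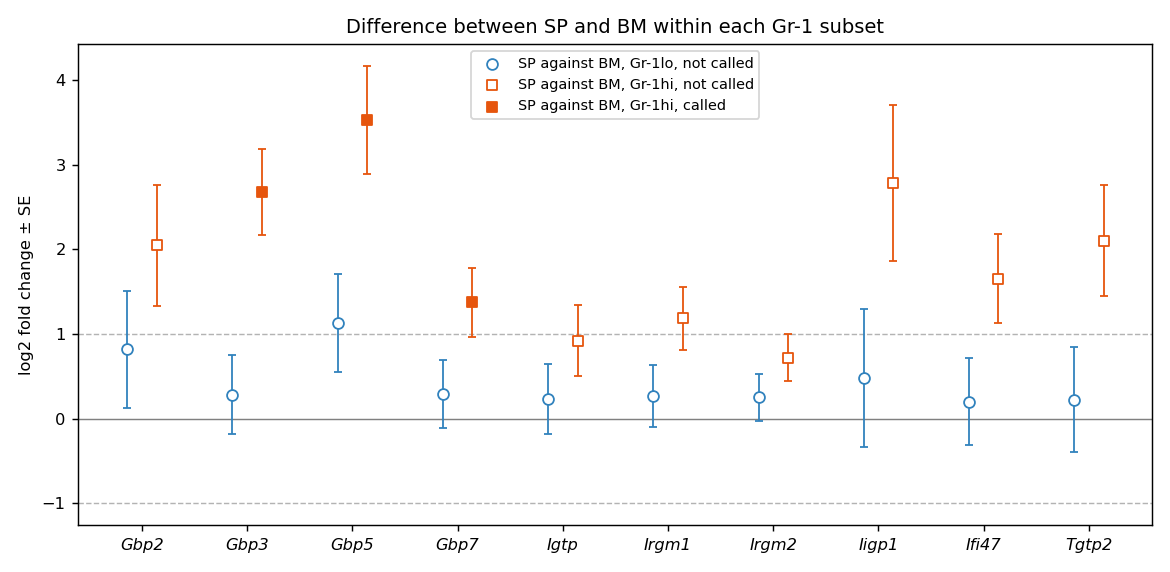
Log2 fold change between SP and BM for each of the 10 genes, in Gr-1lo cells (blue circles) and Gr-1hi cells (orange squares). Bars are SE from the fit, filled symbols were called, and dashed lines mark an FC of 2. Every Gr-1hi value is above the Gr-1lo value of the same gene, the filled symbols are Gbp3, Gbp5 and Gbp7 in Gr-1hi cells, and no Gr-1lo value was called.

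In Gr-1lo cells the same comparison gave 0 calls in either direction, against 3.84% of all genes called higher and 0.215% called lower. No member had an unadjusted p under 0.05 in edgeR's test, against 3545 of the 17650 genes tested. DESeq2 and limma also called 0, while over all genes they called 744 and 550 higher. The 10 log2 values were all positive, from 0.20 (Ifi47) to 1.13 (Gbp5), with a median of 0.28 against -0.01 over all genes. Gbp5 (log2 1.13 ± 0.58, adjusted p = 0.349) was the 1 gene whose SP libraries lay above both BM libraries, which held for 27.1% of all genes. Gbp2 came next with 0.82 ± 0.69 (adjusted p = 0.574). The direction of most of the other 8 rested on single libraries, since 6 of the 10 values turned negative without library 8 and 8 of the 10 without library 11. Without libraries 5 and 7 the count stayed at 0.

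Whether the GTPases differed between Gr-1hi and Gr-1lo cells was examined in each tissue. In BM the genes were split, with 3 called higher in Gr-1hi cells (against 24.2% of all genes) and 2 called lower (against 33.1%). Those called higher were Irgm2 (FC 3.14, log2 1.65 ± 0.28, adjusted p = 0.00110), Igtp (FC 2.73, log2 1.45 ± 0.42, adjusted p = 0.0188) and Gbp7 (FC 2.33, log2 1.22 ± 0.41, adjusted p = 0.0317). Their BM Gr-1hi libraries were both above the BM Gr-1lo libraries, which held for 40.6% of all genes in this direction. Those called lower were Iigp1 (log2 -4.24 ± 0.97, adjusted p = 0.00970) and Gbp3 (log2 -2.24 ± 0.50, adjusted p = 0.00644). With Gbp5 (log2 -1.11 ± 0.59, adjusted p = 0.134), they were the 3 genes whose BM Gr-1hi libraries were both below the BM Gr-1lo libraries, as were 48.2% of all genes. The remaining 4 overlapped, namely Gbp2 (0.74), Irgm1 (0.61), Ifi47 (-0.55) and Tgtp2 (-1.09), and with quantile normalisation the values of Gbp2 and Irgm1 turned to -0.19 and -0.06.

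The calls of Gbp7 and Igtp in BM were lost without any one of libraries 5, 6, 10 and 11 (adjusted p from 0.0768 to 0.159 for Gbp7 and from 0.0523 to 0.0949 for Igtp). Irgm1 was called without library 9 (log2 1.06, adjusted p = 0.0224). Without library 10, Gbp5, Ifi47 and Tgtp2 joined the genes called lower, with log2 values of -1.84, -1.40 and -1.97. Irgm2 kept its call in each of the 15 refits at this threshold, and it was the 1 call left without libraries 5 and 7.

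In SP, 5 genes were called higher in Gr-1hi cells, against 22.3% of all genes, and 0 lower, against 27.4%. These were Gbp7 (FC 4.95, log2 2.31 ± 0.42, adjusted p = 0.00256), Igtp (FC 4.39, log2 2.14 ± 0.43, adjusted p = 0.00407), Irgm2 (FC 4.33, log2 2.12 ± 0.29, adjusted p = 0.000350), Gbp2 (FC 3.91, log2 1.97 ± 0.71, adjusted p = 0.0485) and Irgm1 (FC 2.88, log2 1.53 ± 0.38, adjusted p = 0.00983). All 3 regulatory IRGs were thus higher in SP Gr-1hi than in SP Gr-1lo cells. The libraries of 8 genes did not overlap in this direction, as for 40.6% of all genes, the others being Gbp5 (log2 1.29 ± 0.58, adjusted p = 0.0922), Ifi47 (0.91 ± 0.52, 0.162) and Tgtp2 (0.79 ± 0.63, 0.297). Gbp3 overlapped, with 0.15 ± 0.47, and its sign turned without library 5, without library 7 and with quantile normalisation. Iigp1 was lower in both SP Gr-1hi libraries, as were 45.6% of all genes, with log2 -1.93 ± 0.85 (adjusted p = 0.0913).

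Gbp2 lost its call in SP without any one of libraries 5 to 8 (adjusted p from 0.101 to 0.241), Irgm1 without library 5, 6 or 7 (0.0581 to 0.0856) and Igtp without library 5 (0.0519). Iigp1 was called lower without library 9 or 10 (adjusted p = 0.0314 and 0.0309) and in the fit of the 4 SP libraries alone (0.00423), and its adjusted p over all alternatives ran up to 0.341. DESeq2 added Gbp5 to the genes called higher (adjusted p = 0.0489). Without libraries 5 and 7, 1 of the 5 calls was left, that of Irgm2.

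**Figure D4:**
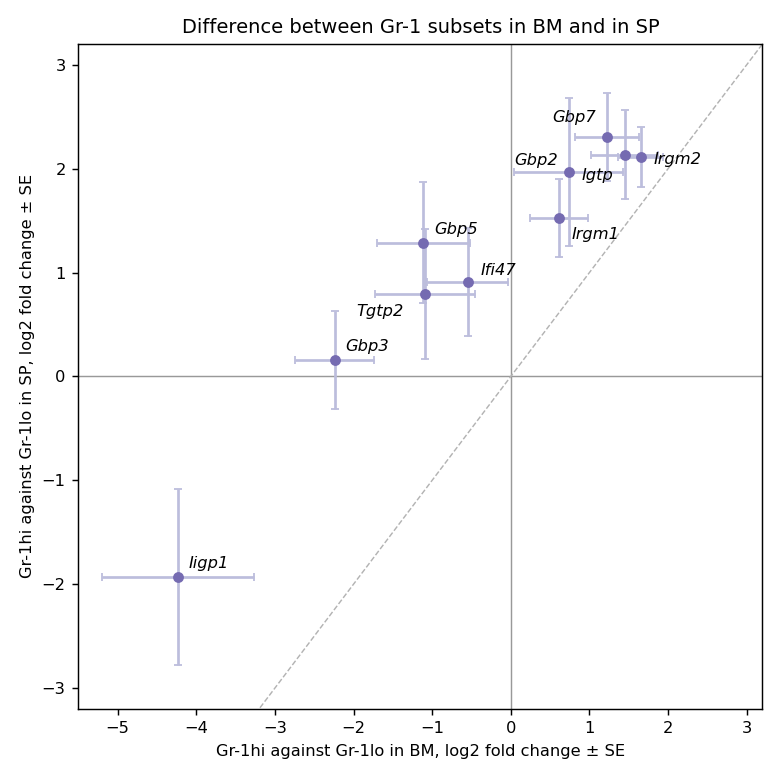
Log2 fold change of Gr-1hi against Gr-1lo cells in BM (x axis) and in SP (y axis) for the 10 genes, with SE from the fit on both axes. The dashed line marks equal values. All 10 points lie above the line, Iigp1 is below 0 on both axes, and Gbp3, Gbp5, Ifi47 and Tgtp2 are below 0 in BM and above 0 in SP.

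The members differed in how far their levels within a library shifted between the subsets. The ratio of Irgm2 to Iigp1 counts was 84.6 and 24.2 in BM Gr-1hi, 9.41 and 7.16 in SP Gr-1hi, 0.682 and 0.421 in SP Gr-1lo, and 0.932 and 0.480 in BM Gr-1lo. Both Gr-1hi groups were thus above 1 and both Gr-1lo groups below it, and the splenic Gr-1hi libraries lay between those of the BM and the Gr-1lo libraries. The ratio of Igtp to Gbp3 was 11.9 and 9.06 in BM Gr-1hi, 2.92 and 2.96 in SP Gr-1hi, and 0.732 to 0.789 in the 4 Gr-1lo libraries. Of Gbp2 to Gbp5 it was 12.8 and 14.5 in BM Gr-1hi, 5.03 and 5.01 in SP Gr-1hi, and 3.11 to 4.27 in Gr-1lo cells. The pairs were picked after the values had been seen, so that these ratios are a description with no test.

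The difference between the differences, Gr-1hi against Gr-1lo in SP minus that in BM, was positive in all 10 genes, from 0.46 (Irgm2) to 2.40 (Gbp5) on the log2 scale. None was called, against 7.74% of all genes called positive and 2.00% called negative. An unadjusted p under 0.05 in edgeR's test was found for Gbp3 and Gbp5, as for 5703 of the 17650 genes tested. The adjusted values were 0.0635 for Gbp3 (2.39 ± 0.68) and 0.108 for Gbp5 (2.40 ± 0.83). DESeq2 called 1 of the 10, Gbp3 (adjusted p = 0.0179), upper-quartile scaling also called Gbp3 (0.0489), and limma called 0. Over all genes, DESeq2 called 1469 positive, upper-quartile scaling 1404 and limma 622, against 1366 in the main fit. Without library 10, Gbp3 (3.08, adjusted p = 0.0218) and Ifi47 (2.27, adjusted p = 0.0302) were called, and without libraries 5 and 7 none was.

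Libraries of the same group differed in these genes in 1 direction. Library 12 was above library 11, library 10 above library 9 and library 8 above library 7 in all 10 genes, and library 5 was above library 6 in 9 of 10, with Tgtp2 as the exception. Over all genes tested with counts in the second library, the first was higher in 55.7%, 51.9%, 49.9% and 50.1%. The median ratio of the 10 genes was 1.80 in BM Gr-1lo, 1.52 in SP Gr-1lo, 2.49 in BM Gr-1hi and 1.37 in SP Gr-1hi, against 0.999 to 1.02 over all genes. Iigp1 had the largest ratio in 3 of the 4 groups (3.08, 2.13 and 4.74, the last in BM Gr-1hi), and the largest in SP Gr-1hi was that of Gbp2 (1.57). A ratio over 1.5 was found for 10 of 10 genes in BM Gr-1lo, 9 in BM Gr-1hi, 6 in SP Gr-1lo and 2 in SP Gr-1hi, against 6.45%, 11.9%, 7.80% and 12.6% of all genes. The library named first in each pair is the side on which more members were higher, so these counts are a description with no test. The 16 other GBP and IRG genes moved alike, higher in library 12 in 16, in library 8 in 15, in library 10 in 15 and in library 5 in 14, with median ratios of 2.64, 1.96, 3.76 and 1.22. The other IFN-γ targets described below were higher in library 12 in 15 of 18. They were higher in library 8 in 17 of 19, in library 10 in 17 and in library 5 in 19. For type I interferon targets it was 14, 19, 18 and 14 of 19 in the same order. Library 5 was above library 6 in all 10 B cell and all 10 T cell markers. It was above in 0 of 7 erythroid and 2 of 8 neutrophil markers. Library 10 was above library 9 in 2 of 10 B cell and 3 of 10 T cell markers. What made the libraries of a group differ was not tested.

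**Figure D5:**
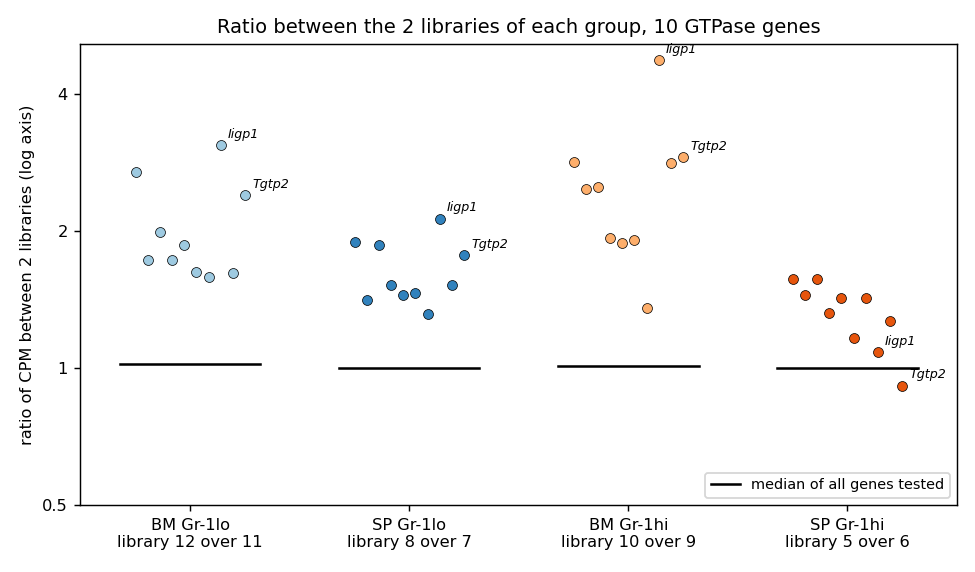
Ratio of CPM between the 2 libraries of each group for the 10 genes, on a log axis. Each point is a gene in the order of the other plots, Iigp1 and Tgtp2 are named, and the black bar is the median of all genes tested. All points but Tgtp2 in SP Gr-1hi lie above 1, while the medians of all genes lie close to 1.

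The other genes of the pathway were taken as lists, and each count below is read against the share of all genes called in the same comparison given above. Between SP and BM, an unadjusted p under 0.05 in edgeR's test was found for 8015 of the 17650 genes in Gr-1hi cells and 3545 in Gr-1lo cells. Of 16 further GBP and IRG genes, 4 were called higher in SP Gr-1hi than in BM Gr-1hi (Gm5431, Gbp10, Gbp11 and Gbp2b) and 0 lower, with a median log2 value of 2.47, and 13 had an unadjusted p under 0.05 (DESeq2 called 12 and limma 7). In Gr-1lo cells edgeR, DESeq2 and limma called 0 of the 16, 4 had an unadjusted p under 0.05, and the median was 0.57. The most abundant were 9930111J21Rik2 (707 and 587 CPM in SP Gr-1hi, 304 and 358 in BM Gr-1hi), 9930111J21Rik1, Gbp9 and Gbp4. Between the subsets of BM, 1 was called higher and 5 lower in Gr-1hi cells, and in SP 4 higher and 1 lower. Without libraries 5 and 7, 1 of the 16 was called between SP and BM in Gr-1hi cells and 0 in Gr-1lo cells, 0 between the subsets in BM, and 2 higher and 0 lower in SP. Without library 10, 10 were called between SP and BM in Gr-1hi cells.

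Upstream of the GTPases, 15 genes of the ligand, its receptor and its signalling were tested. Ifng itself, made mainly by T and NK cells, was at 1.93 and 1.56 CPM in SP Gr-1hi, 0.0748 and 0.248 in BM Gr-1hi, 0.507 and 0.800 in SP Gr-1lo and 0 in both BM Gr-1lo libraries. It was called higher in SP in both subsets, as the 1 gene of the 15 called in Gr-1lo cells. In Gr-1hi cells 4 were called higher, namely Ifng, the inhibitors Socs1 (log2 1.94 ± 0.49) and Socs3 (2.06 ± 0.17) and the factor Irf8 (2.63 ± 0.32). Irf1 was at 1271 and 1058 CPM in SP Gr-1hi and 477 and 781 in BM Gr-1hi (log2 0.89 ± 0.30, adjusted p = 0.0571) and did not pass the test, while Jak1 differed by -0.06 ± 0.08. Irf8, which drives monocytic and opposes granulocytic fate, was at 51.0 and 46.6 CPM in SP Gr-1hi, 5.38 and 10.5 in BM Gr-1hi, and 192 to 337 in Gr-1lo libraries. Like Iigp1, it was lowest in BM Gr-1hi and higher in each Gr-1lo library than in any Gr-1hi library. Without libraries 5 and 7, 2 of the 15 were called in Gr-1hi cells and 1 in Gr-1lo cells.

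Of 20 other known IFN-γ targets, 19 were tested (all but Ido1), and 8 were called higher in SP Gr-1hi than in BM Gr-1hi cells, with a median log2 value of 1.08. They were Cd274, which encodes PD-L1, Acod1, Ciita, Ly6a, Cxcl9, Cxcl10, Cxcl11 and Batf2. In Gr-1lo cells 4 were called higher, the chemokines Cxcl9, Cxcl10 and Cxcl11 and Acod1, the enzyme that makes itaconate, with a median over the list of 0.53. These 4 were thus called in the subset in which no GTPase was, although that difference between genes was not tested. Cxcl9 was at 47.7 and 116 CPM in SP Gr-1lo and 4.02 and 3.40 in BM Gr-1lo (log2 4.46, adjusted p = 0.00298). The most abundant of the list, Tap1, Nlrc5 and Psmb8, differed between SP and BM in Gr-1hi cells by 0.42 ± 0.23, 0.69 ± 0.26 and 0.65 ± 0.25 and were not called. In each subset 4 were called without libraries 5 and 7.

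Of 19 genes known as targets of type I interferon, many of which IFN-γ also induces, 7 were called higher in SP Gr-1hi than in BM Gr-1hi cells (median 0.86). In Gr-1lo cells edgeR and DESeq2 called 0 and limma 1, with 12 at an unadjusted p under 0.05 (median 0.63). Between the subsets, 12 in BM and 14 in SP were called higher in Gr-1hi cells and 4 lower in each tissue, with medians of 2.08 and 2.16. The most abundant, Oasl2, was at 2631 and 1959 CPM in SP Gr-1hi, 1027 and 1373 in BM Gr-1hi, 169 and 204 in SP Gr-1lo and 114 and 128 in BM Gr-1lo, and Oas3, Oas2 and Irf7 followed. Without libraries 5 and 7, 1 was called between SP and BM in Gr-1hi and 2 in Gr-1lo cells, and between the subsets 12 were called higher and 4 lower in BM, and 12 higher and 3 lower in SP.

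Partners of the GTPases were compared between SP and BM in the same way, where 14.0% of all genes were called higher in Gr-1hi cells and 3.84% in Gr-1lo cells. Of 9 genes of the ATG8 conjugation machinery, which IRGs and GBPs need to reach vacuoles, edgeR, DESeq2 and limma called 0 between SP and BM in either subset, with medians of 0.04 in Gr-1lo and -0.16 in Gr-1hi cells and an unadjusted p under 0.05 for 1 and 4 genes, and without libraries 5 and 7 the counts stayed at 0. Their summed level was 1492 to 1749 CPM in the Gr-1hi and 600.3 to 633 CPM in the Gr-1lo libraries, with Gabarap, Map1lc3b, Atg3 and Atg7 the most abundant. Of 6 inflammasome genes, 1 was called higher in SP Gr-1hi cells, Casp4 (284 and 195 CPM against 102 and 133, log2 1.03 ± 0.19, adjusted p = 0.00557), which encodes the caspase that senses lipopolysaccharide in the cytosol. DESeq2 and the fit without libraries 5 and 7 called none of the 6. Gsdmd (-0.04 ± 0.09), Casp1 (0.30 ± 0.16) and Nlrp3 (0.67 ± 0.19) did not reach an FC of 2.

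The 10 genes most like the mean profile of the GTPases over the 8 libraries, by Pearson's r of log2 CPM, were 9130208D14Rik, Gm12185, Gvin1, Gm4070, Gbp8, Gm8979, Tgtp1, Gbp4, Gm8989 and Ifit2, with r from 0.969 to 0.988 among 8587 candidates. The points share the groups and the libraries, so r describes both. Gvin1 encodes a very large interferon-inducible GTPase, and it was far more abundant (a mean of 1184 CPM) than Ifit2 (81.6 CPM). Within the family, Gbp2 (r = 0.95) and Ifi47 (0.94) followed the mean of the other 9 most closely, and Iigp1 (0.24), Irgm2 (0.56) and Gbp3 (0.59) least.

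Markers of other cell types moved with the comparison of SP and BM. The 10 B cell genes summed to 362 to 537 CPM in SP Gr-1hi, 66.7 to 84.5 in SP Gr-1lo, 16.6 to 20.2 in BM Gr-1hi and 8.17 to 10.2 in BM Gr-1lo, and the 10 T cell genes to 74.5 to 118, 24.3 to 36.9, 6.69 to 10.2 and 2.31 to 2.32 CPM. Both lists were thus highest in SP Gr-1hi cells, as was the summed level of the 10 GTPases given below, of which Gbp2 made up the largest share, but not that of Iigp1, and the SP Gr-1hi libraries of Gbp3 overlapped both Gr-1lo groups. Every marker was above 0 in every library but Cr2 in BM Gr-1lo. The 10 dendritic cell genes summed to 115 to 119, 28.6 to 45.5, 27.9 to 41.3 and 6.69 to 9.77 CPM in the same order, the 10 splenic macrophage genes to 953 to 1134, 337 to 377, 614 to 684 and 239.9 to 289.8 CPM, the 8 erythroid genes to 218 to 735, 167 to 233, 35.9 to 44.1 and 7.76 to 8.35 CPM, the 8 plasma cell genes to 288 to 392, 321 to 331, 101 to 102 and 231 to 256 CPM, and the 8 NK cell genes to 19.4 to 27.7, 30.4 to 35.5, 3.88 to 4.60 and 35.7 to 38.1 CPM. Nkg7 made up most of the NK cell sum in Gr-1lo cells, with means of 24.2 CPM in SP and 35.8 in BM. Of the 8 NK cell genes, 4 were called higher in SP Gr-1lo than in BM Gr-1lo and 0 lower (median log2 2.78), against 3.84% and 0.215% of all genes. Xbp1 made up most of the plasma cell sum, and Slc40a1 most of the splenic macrophage sum in Gr-1hi cells. Monocyte genes were at 1164 to 1519 CPM in SP Gr-1hi, 6443 to 6579 in SP Gr-1lo, 1454 to 1880 in BM Gr-1hi and 8543 to 9588 in BM Gr-1lo. Neutrophil genes were at 64261 to 76102, 5595 to 6785, 107015 to 112465 and 3263 to 3404 CPM in the same order. At 0 in at least 1 library of a group were Xcr1, Zbtb46 and Cd209a in BM Gr-1hi and Xcr1 and Ccr7 in BM Gr-1lo cells, and Prf1 and Ncr1 in BM Gr-1lo cells. The part of these cells in the GTPase levels was not tested. The summed level of the 10 GTPases was 4654 to 6543 CPM in SP Gr-1hi, 1460 to 2460 in SP Gr-1lo, 1183 to 2471 in BM Gr-1hi and 922 to 1897 in BM Gr-1lo.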

How the data were processed

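RNA of 8 sorted populations was sequenced, 2 libraries for each of 4 groups taken from the labels. Per the labels and the study's methods, the authors checked reads with FastQC, aligned them with STAR to GRCm38 and used featureCounts with a GENCODE annotation. The deposited table holds raw counts per gene, without normalization, for 54188 genes, of which 34018 had at least 1 count. Here the counts were filtered with filterByExpr, scaled by TMM and fitted with edgeR 4.0.16 (R 4.3.3), by a robust quasi-likelihood model with 1 term per group over all 8 libraries and 4 residual degrees of freedom. Benjamini-Hochberg adjustment ran over 17650 genes, and calls required an adjusted p no higher than 0.05 with a fold change (FC) of 2 or more, the study's default. SE is the log2 FC divided by the root of F. The labels do not say whether libraries came from separate mice (the study states independent biological replicates), so p-values measure the spread between these libraries. Alternatives used RLE and upper-quartile scaling, limma 3.58.1 on quantile-normalised log2 CPM (prior count 1), DESeq2 1.42.0, no filter, the 4 libraries compared, other thresholds, and each library left out. Exon lengths came from GENCODE M21, and intervals or floors cover counting error only. The procedure was run on simulated data in which only SP Gr-1hi differed from the other groups, unlike the data here. Its outcome is not given. All 10 genes were named with every value, and of each list up to 4 genes by mean CPM (1 of them is not reported here), with genes called in short lists named after their values were seen. The genes and the lists were chosen with earlier results of these data known.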

Additional observations from a re-analysis of the deposited data

Results flagged for a closer look

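The libraries of Gbp5 lay in opposite order in the 2 tissues, although neither difference between the subsets passed edgeR's test (log2 -1.11, adjusted p = 0.134 in BM and log2 1.29, adjusted p = 0.0922 in SP). Both BM Gr-1hi libraries were below both BM Gr-1lo libraries (20.5 and 51.2 CPM against 51.7 and 103), and both SP Gr-1hi libraries were above both SP Gr-1lo libraries (507 and 323 CPM against 119 and 221). The difference in SP minus that in BM was 2.40 ± 0.83 on the log2 scale, and it did not pass edgeR's test (adjusted p = 0.108). Over the 14 alternatives it ranged from 1.69 to 3.09, with adjusted p from 0.0502 to 0.547. In BM the nearest libraries of the subsets were 51.2 and 51.7 CPM, so the separation there was narrow. Gbp3, Ifi47 and Tgtp2 also had a negative value in BM and a positive one in SP, but their libraries overlapped in at least 1 tissue.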

How the results depend on the processing

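The count of 0 calls between SP and BM in Gr-1lo cells held under all alternatives run. In Gr-1hi cells the count of 3 became 6 with upper-quartile scaling, 5 with limma on quantile-normalised values, 8 with DESeq2, 0 without a filter, 7 in the fit of the 4 libraries compared, 1 with a stricter threshold (adjusted p under 0.01, FC over 8), 0 without libraries 5 and 7, and 0 to 8 with a library left out. For Gr-1hi against Gr-1lo in BM the count of 5 became 3 with limma, without a filter and with the 4 libraries, 1 at the stricter threshold, 1 without libraries 5 and 7, and 3 to 6 with a library left out. In SP the count of 5 became 6 with DESeq2, 7 (1 of them lower) with the 4 libraries, 3 with limma, 2 without a filter, 0 at the stricter threshold, 1 without libraries 5 and 7, and 2 to 6 with a library left out. The count of 0 for the interaction became 1 with upper-quartile scaling, 1 with DESeq2 and 0 to 2 with a library left out. Leaving out libraries 5 and 7 was chosen after seeing the data. Over all genes, calls higher in SP than in BM in Gr-1hi cells numbered 2465 with TMM, 2662 with upper-quartile scaling, 2298 with DESeq2 and 1653 with limma. Between the subsets in BM, limma called 4577 genes higher and 4781 lower in Gr-1hi cells, against 4275 and 5834 with TMM. In SP limma called 3902 higher and 4520 lower and DESeq2 4218 and 4198, against 3928 and 4833 with TMM. For the refits on other sets of libraries or without a filter no share of all genes is given, so the members' counts cannot be set against it. The cause of the shifts in the members' counts was not tested, except that a stricter threshold calls fewer genes by construction. Leaving out libraries also leaves fewer degrees of freedom, and what this did to the counts was not tested.

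Of the values of single members under the alternatives, 641 kept their direction and side of the threshold, 48 lost and 34 gained a call, and 22 turned sign, all of them in comparisons where the member had not been called. With limma, Gr-1hi against Gr-1lo was -0.19 for Gbp2 and -0.064 for Irgm1 in BM and -0.42 for Gbp3 in SP. Gbp3 in SP was -0.38 without libraries 5 and 7, and -0.16 to 0.40 with a library left out (negative without library 5 or 7). In BM the values with a library left out ran from -1.40 to 0.068 for Ifi47 (positive without library 9) and from -0.12 to 1.599 for Gbp2 (negative without library 10). Between SP and BM in Gr-1lo cells they ran from -0.058 to 0.74 for Gbp3, -0.052 to 0.74 for Gbp7, -0.14 to 0.75 for Igtp, -0.038 to 0.66 for Irgm1, -0.041 to 0.63 for Irgm2, -0.16 to 1.51 for Iigp1, -0.13 to 0.59 for Ifi47 and -0.27 to 0.99 for Tgtp2, with the negative values without library 8 or 11. Summing Tgtp1 and Tgtp2 changed no call. The scaling moved the median of all genes by up to 0.15 (RLE and DESeq2, in BM) and, with quantile normalisation, by -0.32 for SP against BM in Gr-1hi cells and 0.34 for the subsets in BM, where 5 members were positive with TMM and 3 with quantile normalisation. The share of higher among called genes was 90.4% with TMM and 57.3% with quantile normalisation for SP against BM in Gr-1hi cells, and 79.5% and 67.0% for the interaction.

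The study described its BM cells as autologous, but no label ties a library to a mouse and the groups share no replicate number. A paired analysis was therefore not possible, and the fit treats all libraries as independent. With 2 libraries a group, fits that leave 1 library in a group assume that it varies like the others.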
